A study of Mus musculus with 24 samples.

Results

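Radial glia are the neural stem cells of the developing cortex, and 10 genes used to mark radial glia and neural stem cells are described here in tumours of the mouse cortex. The genes are Fabp7, Slc1a3, Nes, Vim, Sox2, Sox9, Prom1, Hopx, Tnc and Ptprz1. Each was taken by its single gene symbol in the platform's probe annotation and is represented by the probe set with the highest mean over the 24 arrays. All 10 passed the filter on low values, out of 13218 genes tested and 17097 measured.

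Total RNA from 24 tumours was profiled on single-colour Affymetrix arrays, with 1 array per tumour and 1 log2 value per probe set. Per the labels, the tumours were excised from the cortex and grew from cells that expressed a class gene. The class gene was RAB3A, a synaptic vesicle GTPase, in 6 tumours, BC74C (spelled as labelled, not an approved symbol) in 9 tumours and ZNF668, a zinc finger protein, in 9 tumours. A second label calls 4 tumours HGG (not spelled out) and 11 ependymoma, a tumour type of the ventricular lining, and leaves 5 as TUMOR and 4 as UNKNOWN. The HGG tumours are 2 BC74C and 2 ZNF668 tumours, and the ependymoma tumours are 2 RAB3A, 6 BC74C and 3 ZNF668 tumours. TUMOR stands on 2 RAB3A and 3 ZNF668 tumours, and UNKNOWN on 2 RAB3A, 1 BC74C and 1 ZNF668 tumour. Strain, age, vector and cell of origin are not given in the sources used here, and whether each tumour came from an animal of its own is not given either, so every p-value measures only the spread between these samples. No cortex or tumour without a class gene was analysed here. Replicates are numbered by deposition order, and 18 titles start with elw and the other 6 with mmr.

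Radial glia span the wall of the embryonic cortex, divide next to the ventricle and give rise to neurons, directly or through intermediate progenitors, and later to astrocytes and ependymal cells. The transcription factors Sox2 and Sox9 maintain the stem state. Fabp7 (brain lipid binding protein), the glutamate transporter Slc1a3 and the intermediate filament proteins Nes (nestin) and Vim (vimentin) mark the radial fibre and soma. Prom1 (CD133) is a membrane protein of stem cell protrusions. Hopx is a homeodomain protein without DNA binding that is used as a marker of outer radial glia, and which cells express it in these tumours was not tested. Tnc (tenascin-C) is an extracellular matrix glycoprotein of the stem cell niche, and Ptprz1 is a receptor tyrosine phosphatase that binds tenascins and pleiotrophin. Several of these genes are also expressed in astrocytes, and Vim in blood vessels and immune cells, so in whole tumours none of them stands for 1 cell type.

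The promoters of 4 members are printed because Fabp7, Sox2 and Ptprz1 varied together across the tumours and Tnc varied most. The windows run from 250 bases before to 50 bases after the annotated start and come from RefSeq on assembly GRCm38.p6, written 5′ to 3′. Capitals mark the motifs searched on both strands.
Fabp7, chr10:57784673-57784972, plus strand: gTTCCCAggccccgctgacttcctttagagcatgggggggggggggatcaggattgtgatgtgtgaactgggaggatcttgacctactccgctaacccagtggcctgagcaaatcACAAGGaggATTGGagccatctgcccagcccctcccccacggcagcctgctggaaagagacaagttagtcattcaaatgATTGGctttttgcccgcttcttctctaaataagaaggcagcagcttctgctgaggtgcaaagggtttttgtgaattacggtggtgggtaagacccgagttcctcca
Sox2, chr3:34649745-34650044, plus strand: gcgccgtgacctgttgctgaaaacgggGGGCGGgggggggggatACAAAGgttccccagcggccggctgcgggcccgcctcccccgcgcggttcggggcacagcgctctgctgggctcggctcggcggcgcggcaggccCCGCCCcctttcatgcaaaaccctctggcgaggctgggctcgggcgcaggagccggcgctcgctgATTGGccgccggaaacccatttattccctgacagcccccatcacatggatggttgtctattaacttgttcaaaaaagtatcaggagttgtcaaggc
Ptprz1, chr6:22875252-22875551, plus strand: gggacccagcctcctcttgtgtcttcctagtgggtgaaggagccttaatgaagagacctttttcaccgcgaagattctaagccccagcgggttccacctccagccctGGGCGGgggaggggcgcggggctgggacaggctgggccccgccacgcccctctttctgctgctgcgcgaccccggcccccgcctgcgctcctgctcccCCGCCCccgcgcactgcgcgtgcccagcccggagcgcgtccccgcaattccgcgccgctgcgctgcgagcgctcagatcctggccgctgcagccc
Tnc, chr4:64046887-64047186, minus strand: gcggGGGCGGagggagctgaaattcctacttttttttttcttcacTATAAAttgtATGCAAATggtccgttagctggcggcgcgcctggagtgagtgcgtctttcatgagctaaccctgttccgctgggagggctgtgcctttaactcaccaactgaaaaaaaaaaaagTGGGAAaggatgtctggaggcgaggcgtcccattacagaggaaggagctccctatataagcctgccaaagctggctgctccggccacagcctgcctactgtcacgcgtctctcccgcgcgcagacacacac

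Such windows were given for 9 of the 10 members and 12 starts, Sox9 not among them. The motifs, with the share of all 32851 windows that held each, were SOX-like ACAANG (41.2%), RBPJ-like TGGGAA (25.6%), the octamer ATGCAAAT (1.74%), the TATA box TATAAA (13.6%), the GC box GGGCGG (35.7%) and CCAAT (37.4%). RBPJ is the DNA-binding partner of Notch. The SOX-like letters stood in a window of 6 members (Fabp7, Slc1a3, Vim, Sox2, Prom1 and Hopx), the CCAAT letters in the same 6, and the GC box in 6 (Slc1a3, Nes, Sox2, Prom1, Tnc and Ptprz1). RBPJ-like letters were found for Fabp7, Prom1 and Tnc, and the TATA box letters for Slc1a3, Vim and Tnc. Relative to the annotated start, the TATA box letters began at -32 in Vim, -161 in Slc1a3 and -205 in the printed Tnc window. Tnc was the 1 member with the octamer, 195 bases before the printed start, in a pair of annotated starts whose windows overlap. The shares above count windows, and some members have several. Of the 12 member windows, SOX-like letters stood in 6, CCAAT in 7 and the GC box in 7. RBPJ-like letters stood in 4 of these windows, the TATA box letters in 4 and the octamer in 2. No hit in the 4 printed windows overlaps another. The median GC content was 55.5% over the members' windows and 52.7% over all windows.

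Array medians lay between 4.98 and 5.19 on the log2 scale. Cell type lists chosen for this tissue gave mean log2 values of 8.09 to 11.10 for astrocyte genes and 4.71 to 9.91 for mature neuron genes, both above the filter value of 3.76 in every tumour. Ependymal genes averaged 4.88 to 5.83 in HGG tumours and 4.89 to 6.01 in ependymoma tumours, and these ranges overlap almost entirely. ZNF668 replicate 9 and RAB3A replicate 5, both of mmr titles and labelled UNKNOWN, stood apart in Ptprz1. In ZNF668 replicate 9 the astrocyte list mean was 8.09, against 9.33 to 11.10 in all others. Its mature oligodendrocyte list mean was 10.71 and its endothelial list mean 8.51, both above all other tumours. In RAB3A replicate 5 the choroid plexus list mean was 8.02, narrowly above the 7.75 of BC74C replicate 2. Its ependymal list mean was 6.43, narrowly above the 6.34 of RAB3A replicate 4. These 2 tumours were the lowest in Ptprz1, at 10.40 and 10.45, where the next lowest had 11.53. The fits without both were chosen on these Ptprz1 values, after the data were seen.

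Tnc varied more than nearly any other gene, and the other 9 members varied less widely. Tnc ran to 11.64 in BC74C replicate 5 at the high end and was lowest in RAB3A replicate 2 at 3.56, with a standard deviation of 2.08 over 24 tumours that exceeded that of 99.9% of the genes tested. Standard deviations of the others lay between 0.59 for Prom1 and 0.99 for Sox9, above those of 67.4% and 88.9% of genes. Nes ranged between 3.07 and 6.49. The low ends of both Tnc and Nes lie under the filter value of 3.76. Without RAB3A replicate 2, which holds the Tnc minimum, Tnc was -2.27 in RAB3A minus ZNF668 and -1.81 in RAB3A minus BC74C, and its slopes, described further on, were -0.83 on the mature neuron list mean and 0.79 on the proliferation list mean. The Sox9 range of 4.47 was set by 1 tumour at its low end: Sox9 was 5.71 in ZNF668 replicate 9, and the next lowest value was 7.42 in RAB3A replicate 4. Fabp7 was lowest in RAB3A replicate 5 at 10.18 and highest in ZNF668 replicate 7 at 13.38. Vim lay between 10.96 and 13.42, Sox2 between 8.69 and 11.38, Slc1a3 between 6.30 and 9.24, Ptprz1 between 10.40 and 12.68, Prom1 between 6.72 and 9.20, and Hopx between 7.53 and 11.48.

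**Figure D1:**
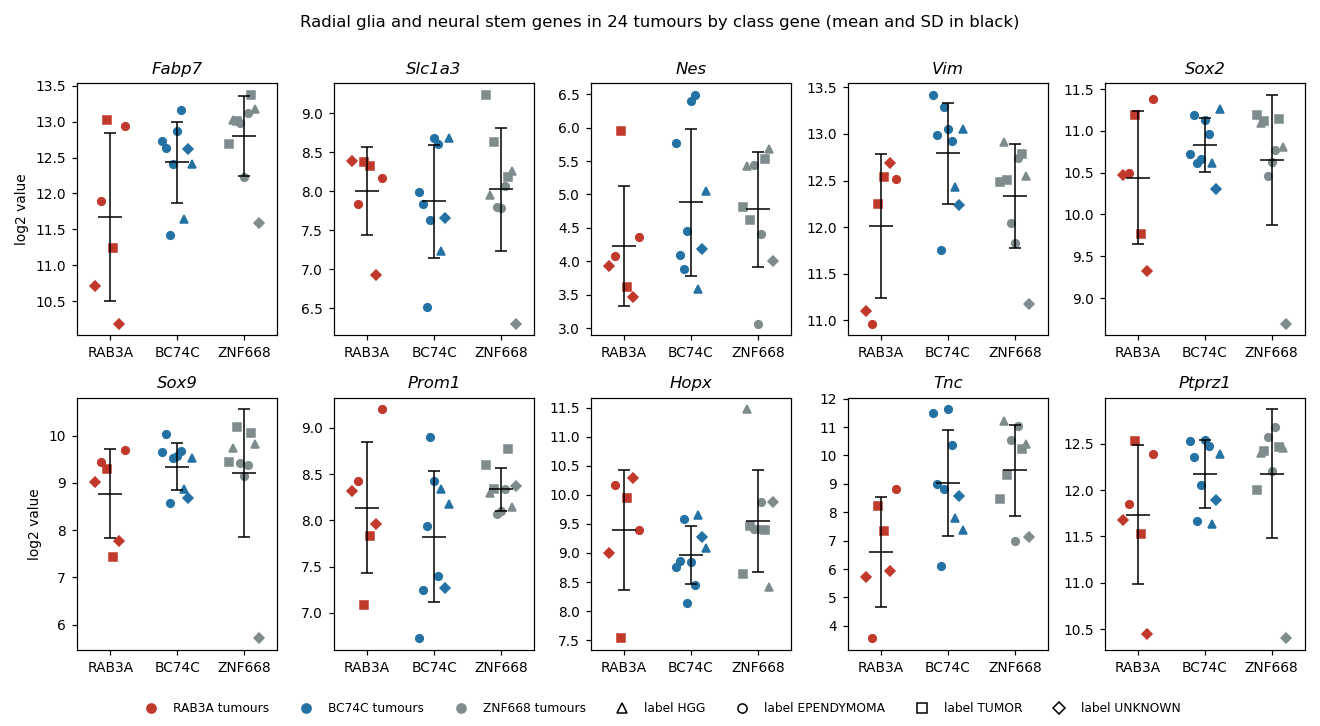
Log2 value (vertical axis) of each of the 10 genes in each tumour, by class gene, with the shape of a point showing the tumour label and black lines the mean and standard deviation. Tnc spans 3.56 to 11.64, and the groups overlap for every gene.

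RAB3A tumours were set against ZNF668 tumours first, to ask whether the class gene goes with a different level of stem cell genes. By limma over all genes, 0 of the 10 members changed, where 0.0757% of all genes tested were called, 0.00757% with a positive and 0.0681% with a negative difference. At an unadjusted p under 0.05 there were 2 members, Tnc and Fabp7, beside 9.21% of all genes. Tnc had a lowest value of 3.56, a median of 6.63 and a highest of 8.82 in the 6 RAB3A tumours, against 6.99, 10.21 and 11.21 in the 9 ZNF668 tumours. All 6 RAB3A tumours lay below the ZNF668 median, but the ranges overlapped. The log2 difference was -2.88 (SE 0.89, unadjusted p = 0.0035, adjusted p = 0.432 by limma). Fabp7, a fatty acid carrier of radial glia, had 10.18, 11.57 and 13.03 in RAB3A tumours, against 11.59, 13.01 and 13.38 in ZNF668 tumours. Of the RAB3A tumours 5 lay below the ZNF668 median, and the ranges overlapped here as well. Its difference was -1.13 (SE 0.37, unadjusted p = 0.00597, adjusted p = 0.47 by limma). The other 8 differences were also negative, between -0.54 for Nes and -0.021 for Slc1a3, with a median over the 10 of -0.38, while the median over all genes was -0.045. Without RAB3A replicate 5 and ZNF668 replicate 9 Tnc gave -3.05 and Fabp7 -0.98, with adjusted p of 0.305 and 0.311 by limma. In a bulk tumour, fewer cells of a type and less RNA per cell cannot be told apart.

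The neuron and cell cycle lists were read beside this comparison, with overlapping ranges in both groups, and their part in the differences was not tested beyond the covariate fits below. The mature neuron list mean had a lowest value of 7.41, a median of 9.39 and a highest of 9.91 in RAB3A tumours, against 4.71, 7.88 and 9.64 in ZNF668 tumours. The proliferation list mean had 4.64, 6.16 and 8.70 in RAB3A tumours, against 5.26, 7.39 and 9.27 in ZNF668 tumours. With the neuron mean as a covariate the differences were -1.97 for Tnc and -0.69 for Fabp7, with adjusted p of 0.887 and 0.939 by limma. With the proliferation mean they were -2.29 and -0.97. Within the elw titles they were -3.39 and -1.12, and within the mmr titles -1.87 and -1.15. Among the tumours labelled ependymoma, 2 RAB3A and 3 ZNF668, they were -3.33 and -0.36. Over 12 fits, those without a single tumour aside, the Tnc difference lay between -3.39 and -1.87 and passed the threshold in none (adjusted p of 0.147 or more by limma).

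BC74C tumours and ZNF668 tumours differed in 0 of the 10 members past the threshold, where 0.303% of all genes were called by limma, 0.0832% positive and 0.219% negative. At an unadjusted p under 0.05 there were 0 members, beside 6.88% of all genes. Prom1, the CD133 membrane protein, had a lowest value of 6.72, a median of 7.94 and a highest of 8.91 in BC74C tumours, against 8.07, 8.34 and 8.77 in ZNF668 tumours. Of the 9 BC74C tumours 7 lay below the ZNF668 median for Prom1, and the highest lay above all ZNF668 tumours. The ZNF668 values for Prom1 were close together. The difference was -0.51 (SE 0.26, adjusted p = 0.778 by limma). Vim stood at 0.46 (SE 0.27) and Hopx at -0.59 (SE 0.36), with adjusted p of 0.851 and 0.86 by limma. In all, 4 members were higher and 6 lower in BC74C tumours, with a median difference of -0.080 over the members and 0.0047 over all genes.

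RAB3A tumours and BC74C tumours were compared in the same model, so the 3 class gene comparisons share tumours. By limma 0 of 10 members changed, and 0% of all genes were called. At an unadjusted p under 0.05 there were 2 members, Tnc and Vim, beside 8.21% of all genes. Vim, the intermediate filament of radial fibres, had a lowest value of 10.96, a median of 12.38 and a highest of 12.69 in RAB3A tumours, against 11.76, 12.99 and 13.42 in BC74C tumours. All 6 RAB3A tumours lay below the BC74C median, and the ranges overlapped. The Vim difference was -0.79 (SE 0.30, unadjusted p = 0.0164, adjusted p = 0.48 by limma). Tnc had 6.09, 8.81 and 11.64 in BC74C tumours, and RAB3A minus BC74C was -2.42 (SE 0.89, adjusted p = 0.449 by limma). Within the mmr titles, which hold a single BC74C tumour, this Tnc difference was 0.010. The members' median difference was -0.51, with 7 negative and 3 positive, where all genes had -0.037.

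**Figure D2:**
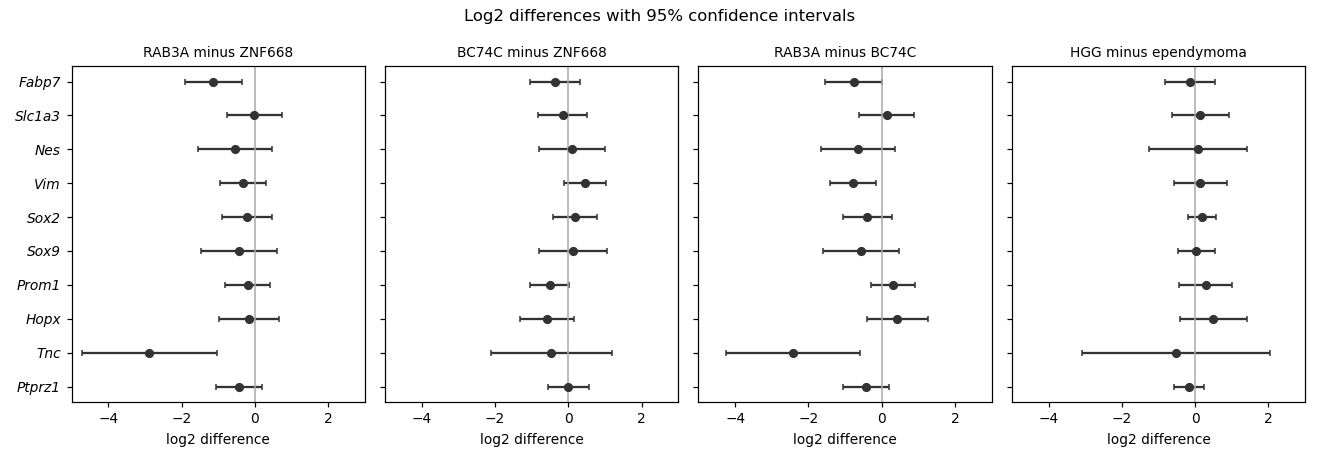
Log2 difference (horizontal axis) of each of the 10 genes in the 4 comparisons, with the first-named group minus the second, as points with 95% confidence intervals. Intervals that leave 0 out appear for Tnc and Fabp7 in RAB3A minus ZNF668 and for Tnc and Vim in RAB3A minus BC74C, before adjustment over all genes.

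HGG tumours were set against ependymoma tumours over the 15 tumours so labelled, in a model that also held the class gene. By limma 0 of 10 members changed, and 0% of all genes were called. At an unadjusted p under 0.05 there were 0 members and 229 genes, 1.73% of all. Hopx, the homeodomain protein, had log2 values of 11.48 and 8.42 in the ZNF668 HGG tumours and 9.66 and 9.08 in the BC74C HGG tumours. The 11 ependymoma tumours had 8.15 to 10.17 (median 9.40). A single HGG tumour, ZNF668 replicate 2, lay above the ependymoma range. The difference was 0.50 (SE 0.43, adjusted p = 0.9998 by limma). This Hopx value was 0.012 without ZNF668 replicate 2 and 1.03 without ZNF668 replicate 8. With elw and mmr titles as blocks in the model Hopx stood at 1.24, and within the elw titles alone at 1.36 (unadjusted p of 0.0069 and 0.00221, adjusted p of 0.9999 in both by limma). Within the elw titles the HGG tumours are only ZNF668 replicate 2, at 11.48, and BC74C replicate 7, at 9.66. The only ependymoma tumour of the mmr titles is RAB3A replicate 6, of a class gene without HGG tumours. Tnc had 11.21 and 10.41 in the ZNF668 HGG tumours and 7.79 and 7.37 in the BC74C HGG tumours, against 3.56 to 11.64 (median 9.01) in ependymoma tumours, a difference of -0.53 (SE 1.20). The median over the 10 members was 0.11, with 7 positive. A test of whether the HGG difference was unlike in BC74C and ZNF668 tumours, over 13 tumours, called 0 members and 0 genes by limma (1079 genes, 8.16%, at an unadjusted p under 0.05), and Tnc had -3.27 (SE 2.02, adjusted p = 0.637 by limma).

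The 4 tumours labelled UNKNOWN are given as values, since the label names no type. Their Nes values lay between 3.47 and 4.18, their Tnc values between 5.71 and 8.56 and their Ptprz1 values between 10.40 and 11.89. The mature neuron list mean was between 9.47 and 9.91 in these 4 tumours. In the 5 tumours labelled TUMOR it was between 4.71 and 9.54, with Nes between 3.62 and 5.95, Tnc between 7.33 and 10.21 and Ptprz1 between 11.53 and 12.53.

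Across all 24 tumours 8 of the 10 members fell with the mature neuron list mean, and Prom1 and Hopx did not. The covariate was the mean of 21 mature neuron genes, such as those of synaptic and neurofilament proteins, and a slope is the change of a gene's log2 value per log2 unit of that mean. By limma these 8 had a slope past the threshold. This reads against a background in which 49.3% of all genes were called, 28.2% of all with a negative slope and 21% with a positive one. The members' median slope was -0.27 and that of all genes -0.027.

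Tnc had the steepest slope of the members, -0.93 (SE 0.24, adjusted p = 0.00204 by limma). Its values were 10.21 in the tumour lowest in neuron genes, ZNF668 replicate 7, and 5.71 in the highest, RAB3A replicate 1. Nes followed with -0.47 (SE 0.10, adjusted p = 0.000593) and Fabp7 with -0.43 (SE 0.09, adjusted p = 0.000211), both by limma. Fabp7 was 13.38 in ZNF668 replicate 7 and 10.71 in RAB3A replicate 1. The transcription factors also fell with a rising neuron mean, Sox9 by a slope of -0.41 (SE 0.12, adjusted p = 0.0055) and Sox2 by -0.26 (SE 0.08, adjusted p = 0.00849) by limma. Ptprz1 had -0.27 (SE 0.07, adjusted p = 0.00238 by limma) and Vim -0.26 (SE 0.08, adjusted p = 0.00892 by limma). Slc1a3, the glutamate transporter, passed narrowly with -0.22 (SE 0.09, adjusted p = 0.0489 by limma). That call was lost when any 1 of 16 tumours was left out, at adjusted p of up to 0.0986 by limma, and kept without RAB3A replicate 1 or 4, BC74C replicate 1, 2 or 5, or ZNF668 replicate 1, 2 or 7. It was also lost with quantile normalization and without the filter (adjusted p of 0.0592 and 0.0587 by limma). Prom1 and Hopx did not pass, with slopes of 0.045 (SE 0.09) and 0.084 (SE 0.12) and adjusted p of 0.692 and 0.573 by limma. Whether their slopes differ from those of the other members was not tested.

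**Figure D3:**
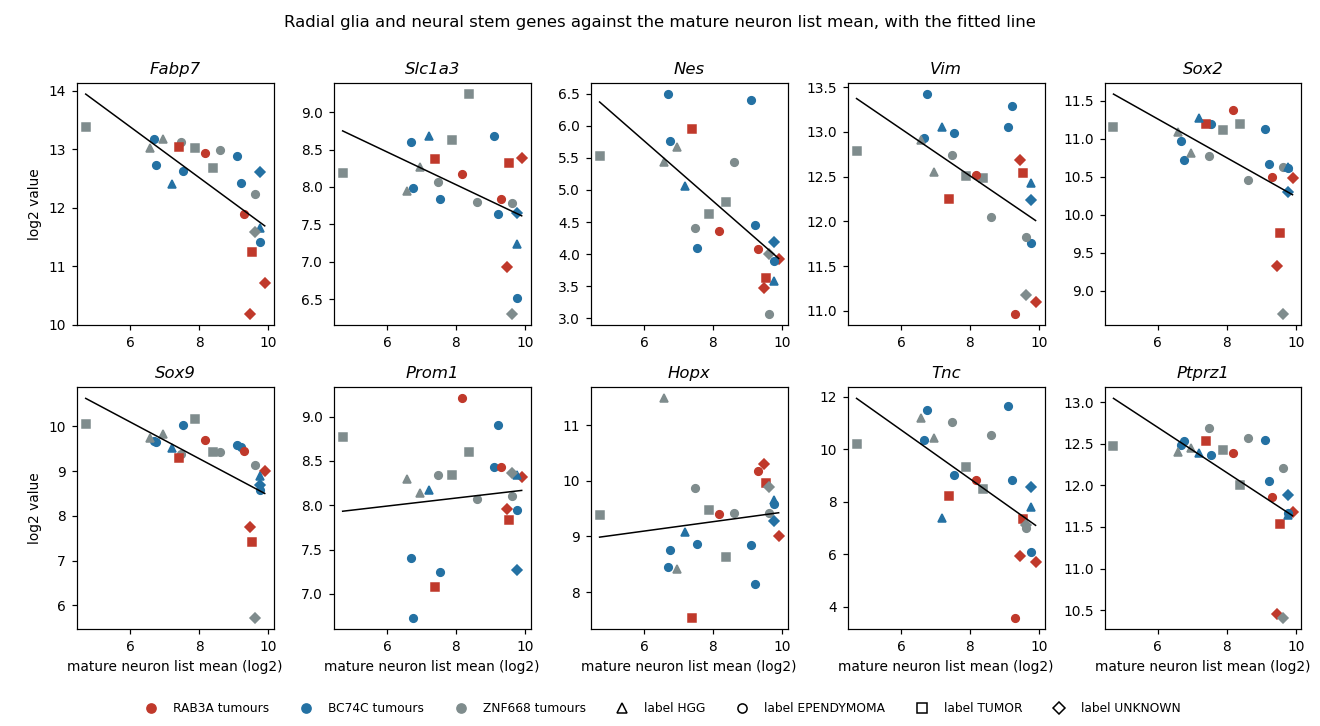
Log2 value of each of the 10 genes (vertical axis) against the mature neuron list mean (horizontal axis, log2) in 24 tumours, coloured by class gene, with the fitted line. The lines fall for 8 genes, most steeply for Tnc at -0.93 per log2 unit, and the slopes of Prom1 and Hopx are 0.045 and 0.084.

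As correlations over the 24 tumours, Pearson's r with the neuron mean was -0.71 for Fabp7 (permutation p = 0.00012, adjusted over 20 relations 0.0012) and Spearman's rho -0.81 (permutation p = 1e-05, the smallest that the resamples can give, adjusted 0.0002). For Tnc r was -0.62 (permutation p = 0.00101, adjusted 0.00404) and rho -0.68 (permutation p = 0.00042, adjusted 0.00137). With the 2 tumours most distant from the median neuron mean left out, both held at r of -0.70 and -0.61. For Slc1a3 r was -0.44, with an adjusted permutation p of 0.053. Within the elw titles the slopes of the 8 called members were between -1.21 for Tnc and -0.19 for Slc1a3, and 7 of them passed, Slc1a3 not. Within the 6 mmr titles they were between -0.77 for Tnc and -0.20 for Vim, 0 members passed by limma, and 7 had an unadjusted p under 0.05. Without RAB3A replicate 5 and ZNF668 replicate 9 they were between -0.87 for Tnc and -0.15 for Slc1a3, and Slc1a3 no longer passed (adjusted p = 0.14 by limma). With those 2 most distant tumours left out, Hopx passed with a positive slope of 0.31 (adjusted p = 0.0246 by limma).

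Vim, Tnc, Nes and Fabp7 rose with proliferation. The covariate here was the mean of 23 cell cycle genes, and by limma 4 of 10 members had a slope past the threshold, all 4 positive. Of all genes 38.8% were called, 20.1% of all with a positive slope, so the share of members called in either direction was near that of all genes. Leaving out 1 tumour at a time gave counts between 3 and 6, the 6 being without RAB3A replicate 5. The count was also 6 when elw and mmr titles entered the model as blocks. Vim rose by 0.33 per log2 unit of the list mean (SE 0.06, adjusted p = 0.000176 by limma). It was 11.10 and 10.96 in the tumours lowest in proliferation, RAB3A replicates 1 and 2, and 12.55 in the highest, ZNF668 replicate 8. Tnc rose by 0.94 (SE 0.21, adjusted p = 0.00105 by limma), with 5.71 and 3.56 in those 2 RAB3A tumours and 10.41 in ZNF668 replicate 8. Nes rose by 0.40 (SE 0.10, adjusted p = 0.00328 by limma). Fabp7 rose by 0.27 (SE 0.10, adjusted p = 0.0408 by limma), a call lost when any 1 of 13 tumours was left out, at adjusted p of up to 0.13 by limma without RAB3A replicate 1. It was kept without RAB3A replicate 5 or 6, BC74C replicate 2, 4, 5, 8 or 9, or ZNF668 replicate 1, 3, 4 or 5. Pearson's r of Fabp7 with proliferation was 0.00076 within RAB3A tumours, 0.82 within BC74C tumours and 0.77 within ZNF668 tumours. For Vim these were 0.78, 0.86 and 0.68, for Tnc 0.43, 0.72 and 0.86, and for Nes 0.25, 0.70 and 0.77. The RAB3A values rest on 6 tumours. Of these, replicate 5 was the highest in proliferation at 8.70 and the lowest in Fabp7 at 10.18. The r within RAB3A tumours without replicate 5 was not computed. Whether the relation differs between class genes was not tested.

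The stem cell transcription factors did not pass: Sox2 had a proliferation slope of 0.11 (SE 0.08) and Sox9 of 0.25 (SE 0.12), with adjusted p of 0.313 and 0.117 by limma. Ptprz1 had 0.16 (SE 0.08, adjusted p = 0.104) and Slc1a3 0.076 (SE 0.09, adjusted p = 0.548) by limma. Without RAB3A replicate 5, a tumour high in proliferation and low in Ptprz1, Ptprz1 passed with 0.23 (adjusted p = 0.00176) and Sox9 with 0.32 (adjusted p = 0.0323) by limma. Of the 24 fits that each left out 1 tumour, this was the 1 in which either passed, and it leaves out a tumour far from the Ptprz1 line. Ptprz1 also passed with elw and mmr titles as blocks and within the elw titles (adjusted p of 0.0288 and 0.00271 by limma). Over all 24 tumours Spearman's rho with proliferation was 0.55 for Ptprz1 and 0.49 for Sox9 (adjusted permutation p of 0.00868 and 0.0252). Pearson's r was 0.39 and 0.37 (adjusted permutation p of 0.0946 in both). Prom1 and Hopx had slopes of -0.11 and -0.079. Within the elw titles 5 members passed, with Tnc at 1.27 and Vim at 0.38, and within the mmr titles 0 members passed by limma and 0 had an unadjusted p under 0.05, with Tnc at 0.44 and Vim at 0.28.

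**Figure D4:**
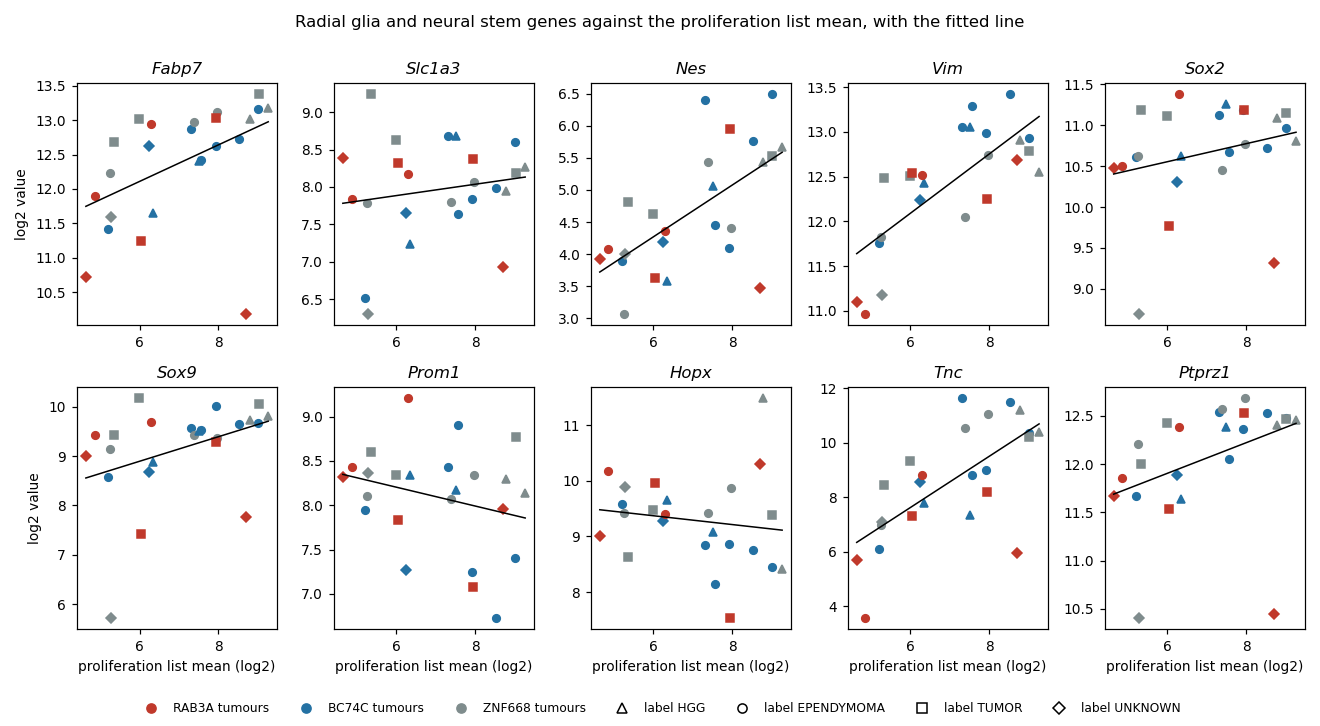
Log2 value of each of the 10 genes (vertical axis) against the proliferation list mean (horizontal axis, log2) in 24 tumours, coloured by class gene, with the fitted line. Vim and Tnc rise by 0.33 and 0.94 per log2 unit, and RAB3A replicate 5 lies far below the line for Ptprz1 at 10.45.

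The neuron mean and proliferation were themselves opposed across the tumours (Pearson's r = -0.74, permutation p = 5e-05; Spearman's rho = -0.78, permutation p = 4e-05), with r of -0.81 within the elw titles and -0.58 within the mmr titles. With both means in 1 model, 3 members kept a slope on the neuron mean past the threshold: Fabp7 at -0.49 (adjusted p = 0.00792), Sox2 at -0.37 (adjusted p = 0.0195) and Ptprz1 at -0.32 (adjusted p = 0.0278) by limma. Vim was the 1 member that kept a slope on proliferation, 0.33 (adjusted p = 0.0373 by limma), and its slope on the neuron mean was 0.00096. Tnc passed for neither, with -0.41 on the neuron mean and 0.66 on proliferation (adjusted p of 0.382 and 0.256 by limma). With the class gene in the model 8 members passed for the neuron mean and 3 for proliferation, Fabp7 no longer among the 3 (adjusted p = 0.0787 by limma).

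Among themselves 8 of the members varied together, with Prom1 and Hopx apart from them. Of the 45 pairs, 24 had an r past the threshold after adjustment over the pairs, all positive, and all 24 were among the 28 pairs that hold neither Prom1 nor Hopx. In those 28 pairs r was at least 0.36. In the 17 pairs with Prom1 or Hopx it lay between -0.42 and 0.27. Sox2 and Sox9 had r of 0.91 (permutation p = 1e-05, the smallest the resamples can give, adjusted over 45 pairs 0.000112) and rho of 0.73 (adjusted permutation p = 0.000844). Of 13217 other genes Sox9 had the second highest r with Sox2, and Sox2 the second highest with Sox9. Other called pairs ranked far lower: by r with Fabp7, Slc1a3 was number 2537 and Vim number 3144 of the 13217. The share of all gene pairs with an r this high was not computed, so the count of 24 has no background beside it. Fabp7 and Ptprz1, whose promoters are printed above, had r of 0.84 and rho of 0.85 (adjusted permutation p of 0.000112 and 0.00018). Ptprz1 had r of 0.87 with Sox2 and with Sox9, but rho of 0.54 and 0.62. Tnc correlated with Fabp7 at 0.76, with Vim at 0.71 and with Nes at 0.70 (adjusted permutation p of 0.00027, 0.00101 and 0.000836). With Ptprz1, a tenascin receptor, Tnc had r of 0.65 and rho of 0.82 (adjusted permutation p of 0.00255 and 0.00018).

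Some of these correlations were weaker without the 2 tumours that stood apart in Ptprz1. Because Ptprz1 is itself a member, leaving out its low end can by itself lower its r with other members. Without RAB3A replicate 5 and ZNF668 replicate 9, 15 pairs passed, and r was 0.79 for Sox2 with Sox9, 0.63 for Sox2 with Ptprz1 and 0.88 for Fabp7 with Ptprz1. Within the elw titles 13 pairs passed, with r of 0.81, 0.62 and 0.89 for the same pairs. After both list means were regressed out 8 pairs passed, among them Sox2 with Sox9 (partial r 0.89), Fabp7 with Ptprz1 (0.73) and Fabp7 with Tnc (0.69), while Vim with Tnc had 0.43 (adjusted permutation p = 0.0997). With the 2 tumours most distant from the median of a pair's first gene left out, 25 passed, of which 2 were negative: Hopx with Tnc and Hopx with Ptprz1, both at r of -0.52.

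**Figure D5:**
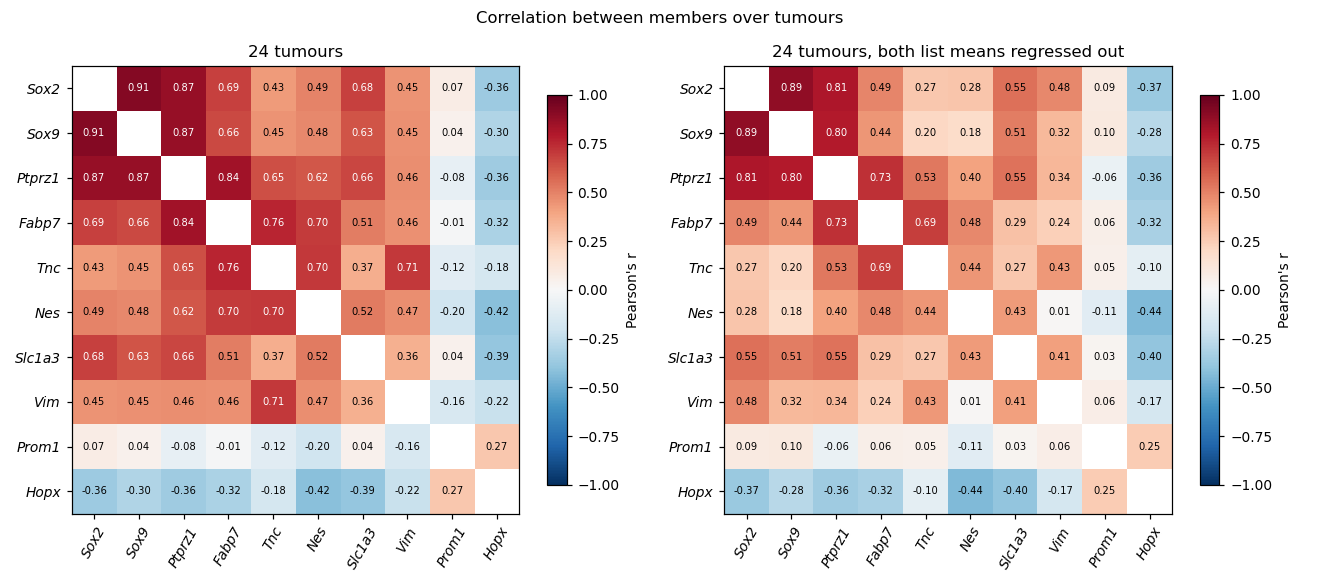
Pearson's r between the 10 genes over 24 tumours, as deposited (left) and after both list means were regressed out (right), coloured on a scale of -1 to 1. Among Sox2, Sox9, Ptprz1 and Fabp7 r is 0.66 to 0.91 on the left. Pairs with other genes also reach this range, such as Fabp7 with Tnc at 0.76. Pairs with Prom1 or Hopx lie between -0.42 and 0.27 on the left.

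The genes whose pattern was most like each member's, by Pearson's r over the 24 tumours among the genes tested, with the 10 members and predicted genes passed over, are given as a description. For Ptprz1 they were Egfr (0.93), the receptor of epidermal growth factor, Slc18b1 (0.92) and Fam181b (0.92). For Sox2 they were Myo10 (0.93), Sertad2 (0.90) and Dbi (0.90), and for Sox9 Sertad2 (0.95), Trps1 (0.91) and Dbi (0.91). Dbi encodes an acyl-CoA binding protein that radial glia express. For Fabp7 they were Jmjd8, Kif7 and Wnt7a, each at 0.90, of which Kif7 is a kinesin of hedgehog signalling and Wnt7a a ligand made in the cortical ventricular zone. For Nes they were Mex3a (0.88), Mkrn3 (0.85) and Gpc2 (0.85), and for Vim Lgals1 (0.88), the gene of galectin-1, Rcn3 (0.85) and Spata13 (0.85). For Tnc they were Lamb1 (0.87), a laminin chain of basement membranes, Sh3pxd2b (0.84) and Ruvbl2 (0.83). Slc1a3 was most like Zfp326, Hnrnpll and Etv5, at 0.83, 0.82 and 0.82. Prom1 had Lgr4 at 0.77, Adcyap1r1 at 0.65 and Epha5 at 0.62, and Hopx had Naa20 at 0.80, Acot8 at 0.68 and Aars2 at 0.66. Without the 2 tumours that stood apart r was 0.81 for Ptprz1 with Egfr, 0.85 for Sox2 with Myo10 and 0.86 for Sox9 with Sertad2.

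Other genes of the same cells and pathway were read from lists. Of 30 other radial glia and neural stem genes tested, 9 had a negative slope on the neuron mean past the limma threshold and 2 a positive one, where 28.2% of all genes had a called negative slope and 21% a called positive one. The share with a negative slope was near that of all genes. Those with negative slopes included Hes1 (-0.38, adjusted p = 0.000282), a Notch target that keeps progenitors from differentiating, and the receptor Notch1 (-0.33, adjusted p = 0.000934). Those with positive slopes were Fam107a (0.69, adjusted p = 0.00045), an actin-associated gene, and Id4 (0.26, adjusted p = 0.0248) by limma. The list's median slope was -0.14. On proliferation 4 rose, among them Cd44 (0.48, adjusted p = 0.00623), a hyaluronan receptor, and Hes5 (0.44, adjusted p = 0.00735), and 1 fell, Fam107a (-0.43, adjusted p = 0.0485), by limma, where 20.1% of all genes rose and 18.6% fell.

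Most called binding partners of tenascin-C and Ptprz1 had negative slopes on the neuron mean, as Tnc and Ptprz1 had. Of 14 tested, 9 fell with the neuron mean and 1 rose by limma, where 28.2% of all genes fell and 21% rose, with a median slope of -0.24. Among them the integrin chain Itgb1, part of tenascin receptors, had -0.43 (SE 0.05) and the proteoglycan Ncan -0.49 (SE 0.09, adjusted p = 8.41e-05). Ptn, the pleiotrophin ligand of Ptprz1, had -0.23 (SE 0.04, adjusted p = 0.000172), and the receptor tyrosine kinase Alk rose by 0.40 (SE 0.08, adjusted p = 0.000284) by limma. On proliferation, where 20.1% of all genes rose and 18.6% fell, 3 partners rose, Itgb1 by 0.37, Ncan by 0.34 and Itgav by 0.17, and Alk fell by 0.36 per log2 unit. In the class gene comparisons 0 partners were called by limma. Ptn stood at -0.58 (SE 0.20, unadjusted p = 0.00779, adjusted p = 0.479 by limma) in RAB3A minus ZNF668.

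Over all 13 lists 169 genes were tested, and 0 of them were called by limma in any of the 4 group comparisons, with 8, 16, 7 and 4 at an unadjusted p under 0.05 for RAB3A minus ZNF668, BC74C minus ZNF668, RAB3A minus BC74C and HGG minus ependymoma.

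The list counts that follow stand beside 28.2% of all genes with a called negative slope on the neuron mean and 21% with a called positive one. On the neuron mean, 4 of 11 intermediate progenitor genes rose and 4 fell by limma, among them Neurod1, a neuronal differentiation factor, with a slope of 0.68 and Dll3, a Notch ligand, with -0.66. Of 9 oligodendrocyte progenitor genes 6 fell, Olig2 with -0.58, and of 9 mature oligodendrocyte genes 7 rose, Mobp with 1.26. Among 10 astrocyte genes Gjb6, a gap junction protein, rose (0.57) and Acsbg1 fell (-0.29). Among 11 endothelial genes Ly6c1 (0.53) and Slco1a4 (0.47) rose, among 7 ependymal genes Ak7 rose (0.33) and among 7 choroid plexus genes Aqp1, a water channel, fell (-0.47). Of 9 pericyte and fibroblast genes 3 fell, Fn1 with -0.38, and of 10 microglia and macrophage genes 0 were called by limma (1 at an unadjusted p under 0.05). All 23 proliferation genes fell. Of the 21 neuron genes, which make up the covariate, 20 rose and Map2, a microtubule protein, fell (-0.24).

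For the slope on the proliferation mean these shares of all genes were 18.6% negative and 20.1% positive. On proliferation, of the 11 intermediate progenitor genes Mfng rose (0.17) and 3 fell, Neurod1 with -0.47. Of the mature oligodendrocyte genes 5 fell, Mobp with -0.78, and of the pericyte and fibroblast genes 5 rose, the collagen gene Col3a1 with 0.59. Slco1a4 (-0.52) and Ly6c1 (-0.46) fell among the endothelial genes, Aldoc (-0.13) among the astrocyte genes, and Aqp1 rose (0.42) among the choroid plexus genes. By limma 0 oligodendrocyte progenitor, 0 microglia and macrophage and 0 ependymal genes were called, with 1, 0 and 0 at an unadjusted p under 0.05. Of the neuron genes Map2 rose (0.24) and 19 fell, and the 23 proliferation genes, which make up the covariate, all rose.

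The 10 genes have 17 single-symbol probe sets, and the others were read beside the chosen ones. The 2 further Vim probe sets correlated with the first at r of 0.98 over the tumours, the second Hopx probe set at 0.92, the second Ptprz1 probe set at 0.95 and the second Tnc probe set at 0.89. For Tnc the second probe set gave -2.06 in RAB3A minus ZNF668 and -0.82 for the slope on the neuron mean, of the same sign as the chosen one. Sox9 has 2 further probe sets at r of 0.87 and 0.63, the second of them under the filter on low values. All further probe sets had the sign of the chosen one in RAB3A minus ZNF668 and in both slopes. In BC74C minus ZNF668 the second Ptprz1 probe set gave 0.011 against -0.0073, and the low Sox9 probe set -0.094 against 0.14.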

How the data were processed

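Per the labels' protocols, total RNA was extracted with Trizol and biotin-labelled cRNA made by the standard Affymetrix protocol. The authors deposited 1 log2 value per probe set and tumour, for 45141 probe sets. Partek version 6.6 is named, per the submitters' processing notes. The background correction, normalization and summarisation of probes are not given in the sources used here. That the values are log2 on a common scale was read from them: they lie between 2.40 and 13.85, with lower quartiles of 3.51 to 3.60 and upper quartiles of 7.58 to 7.69. If arrays were equalised, a shift common to most genes cannot be seen, and signal over background was not assessed.

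After 104 control probe sets were left out, 28898 probe sets carry 1 gene symbol, 551 several and 15588 none, and those with 1 symbol were used. For each of 17097 genes the brightest such probe set on average was taken, and genes under the 30th percentile of probe set means (3.76) were left out. Differences and slopes were fitted with limma 3.58.1 in R 4.3.3 (eBayes, intensity trend). Tests were two-sided, with p-values adjusted by Benjamini-Hochberg over 13218 genes at a threshold of 0.05, and the fits were tested on simulated data. The class gene comparisons came from 1 model of 24 tumours. HGG minus ependymoma, with the class gene as a covariate, leaves out TUMOR and UNKNOWN tumours. Correlations used 100000 resamples, two-sided, adjusted over 20 relations or 45 pairs, in Python 3.11.15 (pandas 2.3.3, numpy 2.4.6), and figures matplotlib 3.10.9.

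The 13 lists hold 187 genes, of which 176 were measured and 169 tested: other radial glia and neural stem, tenascin-C and Ptprz1 partners, intermediate progenitor, proliferation, mature neuron, astrocyte, oligodendrocyte progenitor, mature oligodendrocyte, microglia and macrophage, endothelial, pericyte and fibroblast, ependymal, and choroid plexus. The members and the lists were chosen with earlier results of these data known. All members are named, with the 3 genes most like each by r, passing over members and names from predictions or clones, and of a list up to 2 called genes in each direction, or the 1 highest and the 1 lowest by moderated t where none was called. The slopes of Itgav on proliferation and of Ptn on the neuron mean were chosen for the text after their values were seen. Alternatives covered the filter, the probe set rule, the title prefix, quantile normalization, list means as covariates, array weights, the labels and single tumours.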

Additional observations from a re-analysis of the deposited data

Results flagged for a closer look

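In each class gene group, and among HGG tumours, the highest and the lowest tumour were set against their nearest neighbour by Dixon's criterion at the 95% level. Of 40 sets of values, 7 had a tumour far from the rest, where chance gives about 1 in 20 for independent sets. The 40 sets share tumours and hold correlated genes, so the 7 cannot be measured against that rate. ZNF668 replicate 9 accounts for 4 of the 7: among the 9 ZNF668 tumours it was lowest in the glutamate transporter Slc1a3 at 6.30 (next 7.79), in the transcription factors Sox2 at 8.69 (next 10.46) and Sox9 at 5.71 (next 9.14), and in the phosphatase Ptprz1 at 10.40. In RAB3A replicate 3, Nes was 5.95, where the next of the 6 RAB3A tumours had 4.36. In ZNF668 replicate 2, labelled HGG, Hopx was 11.48, where the next ZNF668 tumour had 9.88. Among the 4 HGG tumours, Ptprz1 was lowest in BC74C replicate 7 at 11.64, and the next value was 12.39.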

How the results depend on the processing

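No paired analysis was possible because the labels give no replicate numbers. The call of 0 members in each of the 4 group comparisons held under all alternatives run, by limma. Values that changed sign, all of members not called in the comparison except those of Fabp7 and Vim in the model with both means, and counts that moved by over 1.5 times were as follows; the cause was not tested. The reported fits called 10 genes for RAB3A minus ZNF668, 40 for BC74C minus ZNF668, 0 for RAB3A minus BC74C (1085 unadjusted) and 0 for HGG minus ependymoma (229 unadjusted), and 6510 and 5124 for the slopes on the neuron mean and proliferation. With array weights, the number of genes called was 130 for BC74C minus ZNF668 and 21 for RAB3A minus ZNF668. There, BC74C minus ZNF668 was -0.014 for Sox2 and -0.22 for Sox9. With both list means in 1 model, the number of members called was 3 for the slope on the mature neuron mean and 1 for the slope on the proliferation mean. There, the number of genes called was 3207 for the slope on the mature neuron mean and 595 for the slope on the proliferation mean. Likewise, the slope on the mature neuron mean was -0.087 for Prom1 and 0.00096 for Vim. There, the slope on the proliferation mean was -0.076 for Fabp7, -0.064 for Ptprz1, -0.17 for Slc1a3, -0.15 for Sox2 and -0.075 for Sox9. With the mature neuron mean as a covariate, the number of genes called was 64 for BC74C minus ZNF668, 5 for RAB3A minus BC74C and 0 for RAB3A minus ZNF668. There, BC74C minus ZNF668 was 0.17 for Ptprz1, 0.0070 for Slc1a3 and 0.038 for Tnc. Likewise, HGG minus ependymoma was -0.27 for Nes, -0.040 for Slc1a3, -0.12 for Sox9 and -0.057 for Vim. There, RAB3A minus ZNF668 was 0.037 for Nes, 0.27 for Slc1a3, 0.11 for Sox2, 0.073 for Sox9 and 0.0040 for Vim. With the mean of all probe sets of a gene, the number of genes called was 2 for RAB3A minus BC74C. There, BC74C minus ZNF668 was 0.0018 for Ptprz1. Without the class gene covariate, HGG minus ependymoma was 0.25 for Tnc. Without the filter on low values, the number of genes called was 1 for RAB3A minus BC74C and 6 for RAB3A minus ZNF668. In tumours labelled ependymoma alone, the number of genes called was 0 for BC74C minus ZNF668 and 0 for RAB3A minus ZNF668. There, BC74C minus ZNF668 was 0.047 for Tnc. Likewise, RAB3A minus BC74C was 0.058 for Sox2 and 0.063 for Sox9. There, RAB3A minus ZNF668 was 0.22 for Hopx, 0.65 for Prom1, 0.12 for Slc1a3, 0.32 for Sox2 and 0.25 for Sox9. With both list means regressed out, 8 of the 45 pairs were called. With the proliferation mean as a covariate, the number of genes called was 1 for HGG minus ependymoma and 4 for RAB3A minus ZNF668. There, HGG minus ependymoma was -0.29 for Nes, -0.029 for Slc1a3, -0.12 for Sox9 and -0.064 for Vim. Likewise, RAB3A minus ZNF668 was 0.043 for Slc1a3. With the title prefix as a block, the number of genes called was 2 for RAB3A minus BC74C. There, HGG minus ependymoma was -0.26 for Nes, -0.20 for Slc1a3, -0.027 for Sox2, -0.13 for Sox9 and -0.16 for Vim. Within the elw titles, the number of genes called was 21 for RAB3A minus ZNF668. There, 13 of the 45 pairs were called. Likewise, BC74C minus ZNF668 was -0.10 for Sox2 and -0.22 for Sox9. There, HGG minus ependymoma was -0.33 for Nes, -0.31 for Slc1a3 and -0.14 for Sox9. Within the mmr titles, the number of members called was 0 for the slope on the mature neuron mean and 0 for the slope on the proliferation mean. There, the number of genes called was 0 for BC74C minus ZNF668, 0 for RAB3A minus ZNF668, 426 for the slope on the mature neuron mean and 87 for the slope on the proliferation mean. Likewise, BC74C minus ZNF668 was -0.015 for Nes, 0.62 for Ptprz1 and 1.10 for Slc1a3. There, RAB3A minus BC74C was -1.13 for Slc1a3 and 0.010 for Tnc. Likewise, RAB3A minus ZNF668 was 0.61 for Hopx, 0.15 for Prom1, 0.14 for Sox2, 0.20 for Sox9 and 0.43 for Vim. There, the slope on the mature neuron mean was -0.075 for Prom1. Without both tumours lowest in Ptprz1, chosen after seeing the data, the number of genes called was 75 for BC74C minus ZNF668. There, 15 of the 45 pairs were called. Likewise, BC74C minus ZNF668 was -0.069 for Sox2 and -0.30 for Sox9. Leaving out 1 tumour at a time gave, for HGG minus ependymoma, between -0.29 and 0.13 for Fabp7, between -0.27 and 0.67 for Nes, between -0.30 and 0.016 for Ptprz1, between -0.14 and 0.46 for Slc1a3, between -0.066 and 0.27 for Sox9 and between -1.18 and 0.011 for Tnc. Such fits gave, for BC74C minus ZNF668, between 25 and 63 genes called, between -0.11 and 0.27 for Nes, between -0.23 and 0.059 for Ptprz1, between -0.37 and 0.017 for Slc1a3, between -0.069 and 0.24 for Sox2 and between -0.30 and 0.26 for Sox9. Such fits gave, for RAB3A minus BC74C, between 0 and 4 genes called and between -0.038 and 0.35 for Slc1a3. Such fits gave, for RAB3A minus ZNF668, between 0 and 40 genes called, between -0.34 and 0.21 for Hopx, between -0.41 and 0.013 for Prom1, between -0.24 and 0.19 for Slc1a3 and between -0.46 and 0.0066 for Sox2. Such fits gave, for the slope on the mature neuron mean, between -0.0054 and 0.15 for Prom1. Quantile normalization, the class gene as a covariate of the slopes and leaving out the 2 tumours farthest from the median moved no count by over 1.5 times. HGG minus ependymoma could not be fitted within the mmr titles, where label and class gene cannot be told apart, and any BC74C value there rests on 1 BC74C tumour assumed to vary like the others. Where 0 genes were called, limma had at an unadjusted p under 0.05, for RAB3A minus ZNF668, 672 genes with the neuron covariate, 400 among tumours labelled ependymoma and 229 within mmr. For BC74C minus ZNF668 these were 681 among tumours labelled ependymoma and 405 within mmr. Precision is limited by how many arrays there are: HGG minus ependymoma, with 4 against 11 arrays, had a standard error of 1.20 for Tnc.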
